A study of Homo sapiens with 4 samples.

Results

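The Wnt pathway genes described here are 42 genes chosen by name from the 19970 genes of an RNA sequencing table, namely receptors, the R-spondin module, the destruction complex, T-cell factors, feedback inhibitors and stem cell targets. All 42 were in the table, and 39 of them were among the 12616 genes with enough counts to be tested. The cells were COLO205, a human cell line derived from a colorectal cancer. Cells given nonylphenol (NP), an alkylphenol that acts as an environmental estrogen, at 1 µM for 24 h were compared with control cells given the solvent DMSO, with 2 samples in each group. Whether the 2 samples of each group were separate cultures is not stated, and the p-values therefore rest on a spread between samples that may be technical.

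In the canonical Wnt pathway, a Wnt ligand joins a Frizzled receptor to LRP5 or LRP6 at the cell surface, Dishevelled proteins relay the signal, and the destruction complex built on Axin and APC stops degrading β-catenin. β-catenin then enters the nucleus, binds T-cell factors (TCF/LEF) and switches on target genes, several of which encode inhibitors that feed back on the pathway. In the intestine this pathway maintains the stem cells of the crypt, and loss of APC is a common early step in colorectal cancer.

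Read counts summed to 13401691 and 16998129 in the NP samples, against 15617930 and 15659794 in the control samples. All 11 colon epithelium markers that were examined had enough counts to be tested and none passed the test. KRT8 stood at 471 FPKM (fragments scaled by gene length and by the reads counted in the sample) and EPCAM at 444 FPKM, while the intestinal markers KRT20 and CDX2 were low, at 0.878 and 1.14 FPKM. Of 15 markers of leukocytes, fibroblasts, endothelium and erythroid cells, PTPRC, CD3E, COL1A2, PDGFRA and HBB had 0 counts, and 14 stood at or below 0.336 FPKM. The exception was LYZ, encoding lysozyme, at 199 FPKM, which was higher in NP cells (log2 fold change 0.11, adjusted p = 0.0466 from edgeR), a call that DESeq2 did not make (adjusted p = 0.197). In CPM (counts of a gene scaled by the size of the library), these 15 markers summed to 368 and 352 in NP samples, against 338 and 332 in control samples. LYZ alone had 365 and 347 CPM in NP samples, against 333 and 328 CPM in control samples. The sum was thus almost wholly LYZ and does not describe the other markers. The part of these markers in the results below was not tested.

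In NP-treated cells, 4 Wnt genes were lower than in control cells and 0 were higher at an adjusted p under 0.05 (edgeR's quasi-likelihood test with Benjamini-Hochberg adjustment over all genes tested). The 4 genes were NKD1, which encodes an inhibitor of Dishevelled, ZNRF3, which encodes a ubiquitin ligase that removes Frizzled receptors from the surface, AXIN1, which encodes the scaffold of the destruction complex, and TNFRSF19, which encodes the receptor TROY of crypt stem cells. AXIN1 fell by 13.6%, the least of the 4, and TNFRSF19 fell by 17.6%, the most. They made up 10.3% of the 39 Wnt genes tested, while 4.06% of all genes tested were called by the same rule, 1.70% as lower and 2.35% as higher. These shares were not compared by a test, since the list was chosen with earlier results of these data known. The Wnt genes tested also had a higher median level, at 11.8 FPKM against 5.77 FPKM over all genes tested. Their median length was 6355 bases, against 5163 bases. DESeq2 gave an adjusted p for 26 of the 39 genes and called 2 of these lower (7.69%), NKD1 and ZNRF3, and 0 higher. Of all genes with an adjusted p from DESeq2, 3.78% were called in either direction, 1.50% as lower and 2.28% as higher. At an unadjusted p under 0.05, 7 Wnt genes were lower (17.9% of the 39, against 6.97% of all genes tested). By the same rule, 1 was higher (2.56%, against 8.17%). These shares were likewise not compared by a test. No Wnt gene reached the cutoff named in the study's methods, an unadjusted p under 0.05 together with a log2 fold change over 1 in size, which 0.428% of all genes tested reached. In bulk RNA, fewer cells that express a gene and less RNA per cell cannot be told apart.

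The fold changes of the list were centred near 0. The median log2 fold change of the Wnt genes was -0.0035, against 0.0015 over all genes tested, with 20 genes below 0 and 19 above. Of the 39, 27 lay within 0.1 of 0 on the log2 scale. Both NP samples lay below both control samples in 13 Wnt genes (33.3%, against 21.7% of all genes tested) and above both in 5 (12.8%, against 22.5%). Their samples overlapped in the other 21.

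**Figure D1:**
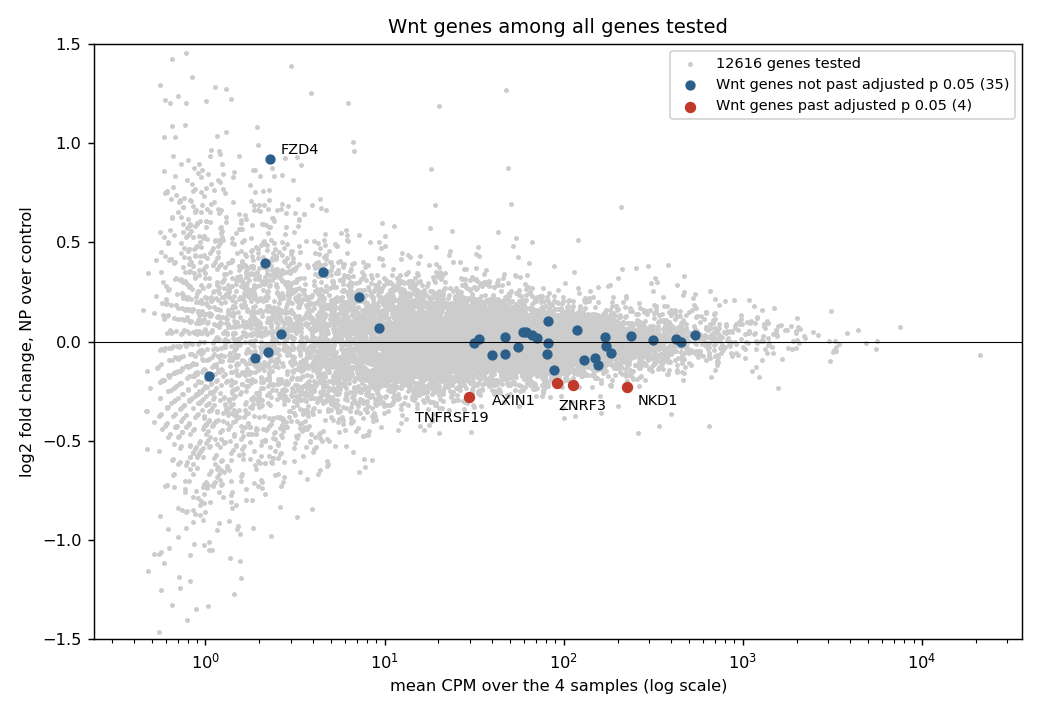
Log2 fold change of NP over control (vertical axis) against mean CPM over the 4 samples (horizontal axis, log scale) for the genes tested by edgeR, of which 17 lie beyond the vertical axis. The 4 Wnt genes past an adjusted p of 0.05 (red) lie between -0.21 and -0.28, and the 35 others (blue) lie mostly near 0, except for genes of low counts such as FZD4.

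To show the sequence beside the expression, the 250 bases before the RefSeq start site are given below for 3 genes, in the human genome build GRCh38.p14, each read 5′ to 3′ on the strand of its gene. Capitals mark CTTTGA, the core of the TCF/LEF binding motif, or its reverse complement TCAAAG. SP5, a target gene with a transcription factor product, and DKK1, a secreted inhibitor, are shown because they were the 2 promoters with a match. AXIN1 is shown because it fell and had no match. Bases after the start site were found in a GENCODE release 29 transcript of the same gene for SP5 and DKK1. They were not found for AXIN1, so its start site, and with it the lack of a match, is less certain.
SP5, chr2:170715087-170715336, plus strand: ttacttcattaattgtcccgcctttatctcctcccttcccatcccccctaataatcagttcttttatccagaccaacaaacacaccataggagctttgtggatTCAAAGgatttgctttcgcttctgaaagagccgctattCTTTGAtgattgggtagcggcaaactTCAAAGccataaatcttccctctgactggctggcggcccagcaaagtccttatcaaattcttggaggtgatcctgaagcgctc
DKK1, chr10:52314031-52314280, plus strand: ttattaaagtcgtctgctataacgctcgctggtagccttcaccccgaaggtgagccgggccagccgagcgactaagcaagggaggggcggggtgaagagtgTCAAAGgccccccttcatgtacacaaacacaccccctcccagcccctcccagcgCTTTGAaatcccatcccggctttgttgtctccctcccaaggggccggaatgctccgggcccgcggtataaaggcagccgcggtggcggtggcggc
AXIN1, chr16:352724-352973, minus strand: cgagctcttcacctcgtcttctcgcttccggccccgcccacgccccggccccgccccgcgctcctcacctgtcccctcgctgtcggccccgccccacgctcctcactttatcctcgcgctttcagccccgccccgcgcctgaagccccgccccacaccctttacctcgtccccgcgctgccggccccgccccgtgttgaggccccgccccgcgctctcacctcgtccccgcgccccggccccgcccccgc

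In SP5 the first bases of the matches lay 147, 109 and 83 bases before the start site, and in DKK1 they lay 149 and 95 bases before it. In all, 29 of the 42 genes had a promoter in the RefSeq table, and 2 of these (6.90%) held CTTTGA on either strand within a window of 300 bases, 250 before and 50 after the start. The same share was 10.8% for the promoters of genes in the RNA sequencing table and 13.1% for all promoters of the RefSeq table. It was 8.99% for the promoters of genes tested here, a set that leaves out DKK1, APCDD1 and WIF1, all among the 29. Among the Wnt genes tested, SP5 alone held a match. The longer form CTTTGAT, which contains CTTTGA, was found in 1 promoter (3.45%, that of SP5). Its share was 1.92% for the promoters of genes in the RNA sequencing table and 1.37% for those of genes tested. A match describes the letters only, and the absence of one says nothing about binding outside this window. Among the genes that fell, AXIN1 and TNFRSF19 had no match, and the promoters of NKD1 and ZNRF3 were not analysed here.

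The levels of the 42 genes differed widely. Averaged over the 4 samples, 22 genes stood at 10 FPKM or more and 10 stood under 1 FPKM. The highest were TCF7, a T-cell factor, at 53.5 FPKM, LRP5, a co-receptor, at 51.0 FPKM, SOX9, a crypt transcription factor, at 46.5 FPKM, ASCL2, a transcription factor of crypt stem cells, at 44.1 FPKM, and CTNNB1, which encodes β-catenin, at 38.4 FPKM. APCDD1, DKK1 and WIF1, all inhibitors of the pathway, stood lowest, at or below 0.0507 FPKM.

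**Figure D2:**
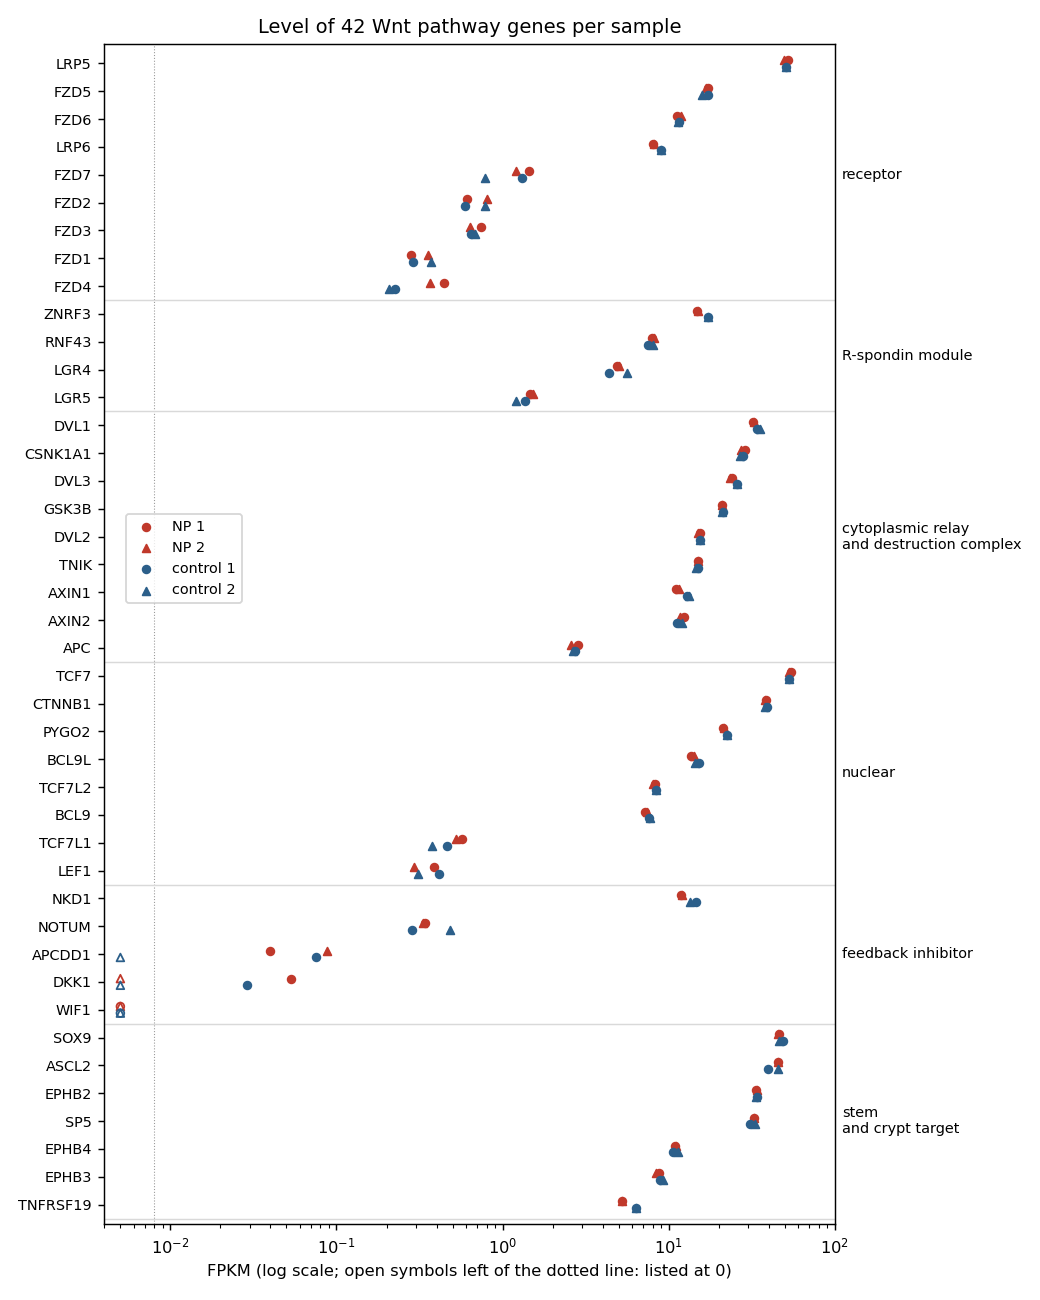
FPKM (horizontal axis, log scale) of the 42 Wnt pathway genes in each sample, grouped by role and ordered by level, with NP samples in red and control samples in blue. TCF7, LRP5, SOX9 and ASCL2 stand above 40 FPKM in the mean over samples, and WIF1 is listed at 0 in all 4 samples (open symbols).

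Among the receptors, none of the 9 genes passed the test in either direction. Frizzled genes encode the receptors that bind Wnt ligands, and 7 of them, FZD1 to FZD7, were among the 42 genes. Of the summed FPKM of these 7, FZD5 held 52.4% and 54.0% in NP samples, against 52.6% and 54.1% in control samples, and FZD6 held 35.1% and 37.1%, against 36.2% and 38.0%. The other 5 stood at or below 1.18 FPKM (FZD7). FZD8 and FZD10, which belong to the wider list described last, stood at 0.313 and 1.84 FPKM and are not in these shares. FZD5, with a log2 fold change of 0.06 (95% interval -0.03 to 0.15), and FZD6, with 0.02 (-0.12 to 0.16), were thus the main transcripts of these 7 in both groups. The value of FZD5 was 0.12 without control replicate 1 and -0.0018 without control replicate 2. FZD1 (log2 fold change -0.05, SE 0.32), FZD2 (0.04, SE 0.29), FZD3 (0.07, SE 0.15) and FZD7 (0.35, SE 0.22) were measured with wide errors. The value of FZD7 was 0.77 without control replicate 1 and 0.03 without control replicate 2.

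FZD4 had the largest fold change among the Wnt genes tested but did not pass the adjusted threshold. It had 3.31 and 2.69 CPM in NP samples, from 56 and 36 counts, against 1.66 and 1.54 CPM in control samples, from 26 and 24 counts. The groups did not overlap, with a log2 fold change of 0.92 (SE 0.31, unadjusted p = 0.0047, adjusted p = 0.0863 from edgeR). The adjusted p ranged between 0.0523 and 0.514 over the alternative settings, and the log2 fold change was 0.21 with limma on log2(FPKM + 1), where the pseudocount shrinks changes of low genes, and 1.05 without NP replicate 2. In the GENCODE release 29 annotation, 18.9% of the exon bases of FZD4 overlap PRSS23, a protease gene on the opposite strand, which was higher in NP cells (140 and 137 CPM in NP samples, against 121 and 125 CPM in control samples, adjusted p = 0.0111 from edgeR). The strand setting of the counting is not given in the sources used here. How reads in the shared bases were assigned to FZD4 or PRSS23, or left out, is therefore not known.

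The co-receptor genes LRP5 and LRP6 encode partners of Frizzled. LRP5 held 86.6% and 86.0% of their summed FPKM in NP samples, against 85.0% and 85.1% in control samples, and its log2 fold change was 0.01 (95% interval -0.06 to 0.07). LRP6 had 83.8 and 84.4 CPM in NP samples, against 92.7 and 92.7 CPM in control samples. Both NP samples lay below both control samples, but the log2 fold change of -0.14 (SE 0.051, unadjusted p = 0.00787) did not pass after adjustment (adjusted p = 0.12 from edgeR).

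The R-spondin module sets how many Wnt receptors stay on the cell surface: RNF43 and ZNRF3 are ubiquitin ligases that clear Frizzled, and LGR4 and LGR5 bind R-spondins, which block these ligases. Of its 4 genes, 1 was lower and 3 did not pass. ZNRF3 (ENSG00000183579, GRCh38 chr22:28883572-29057488, plus strand) had 103 and 105 CPM in NP samples, against 121 and 121 CPM in control samples. In counts this was 1750 and 1401, against 1898 and 1893. The groups did not overlap, with means of 104 ± 0.906 CPM in NP cells and 121 ± 0.252 CPM in control cells (SD, n = 2 each). An SD of 2 samples is imprecise and does not measure how far the groups are apart. ZNRF3 fell by 14.1% (log2 fold change -0.22, SE 0.046, adjusted p = 0.0012 from edgeR). It passed in 12 of 14 alternative settings, those with each sample left out in turn included, and did not pass with limma on FPKM values (adjusted p = 0.0854 and 0.0811).

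RNF43, the paralogue of ZNRF3, had 59.6 and 60.9 CPM in NP samples, against 56.0 and 60.2 CPM in control samples, with a log2 fold change of 0.05 (95% interval -0.08 to 0.18, adjusted p = 0.784 from edgeR). ZNRF3 made up 65.1% and 64.9% of the summed FPKM of the 2 ligase genes in NP samples, against 69.8% and 68.4% in control samples. The difference between the changes of the 2 genes was not tested. Of the exon bases of RNF43, 73.9% overlap other annotated genes, mainly the read-through gene AC004687.2, which had 10 and 1 counts in NP samples, against 4 and 6 in control samples, so the level of RNF43 is uncertain. LGR5, the marker of crypt stem cells, had 7.68 and 7.92 CPM in NP samples, against 7.07 and 6.27 CPM in control samples. The log2 fold change was 0.22 (95% interval -0.12 to 0.56, adjusted p = 0.598 from edgeR), and a difference was not detectable at this depth. LGR4 was at 4.96 FPKM with a log2 fold change of -0.01 (SE 0.089), and this value was -0.17 without control replicate 1 and 0.18 without control replicate 2.

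In the cytoplasm, 1 of 9 genes was lower and 8 did not pass. AXIN1 (ENSG00000103126, chr16:287440-352723, minus strand) had 83.8 and 86.7 CPM in NP samples, against 97.0 and 99.9 CPM in control samples. In counts this was 1418 and 1160, against 1524 and 1561. The means were 85.2 ± 2.04 CPM in NP cells and 98.5 ± 2.06 CPM in control cells (SD, n = 2 each), and the groups did not overlap. AXIN1 fell by 13.6% (log2 fold change -0.21, SE 0.051, adjusted p = 0.00633 from edgeR). The call was lost with DESeq2 (adjusted p = 0.0821), without control replicate 2 (adjusted p = 0.0852 from edgeR), without NP replicate 1 (adjusted p = 0.144) and with limma on FPKM values (adjusted p = 0.138 and 0.129).

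AXIN2, the second Axin gene and a direct target of β-catenin and TCF used widely as a readout of the pathway, did not pass the test. It had 65.1 and 60.8 CPM in NP samples, against 58.7 and 63.2 CPM in control samples. The groups overlapped, and the log2 fold change was 0.05 (95% interval -0.08 to 0.18, adjusted p = 0.778 from edgeR). AXIN1 made up 47.2% and 49.7% of the summed Axin FPKM in NP samples, against 53.4% and 52.3% in control samples. The difference between the changes of AXIN1 and AXIN2 was not tested. Of the exon bases of AXIN2, 25.2% overlap the annotated gene AC004805.1, which had 0 counts in NP samples and 1 count in each control sample. How reads in the shared bases were counted is not known, so the level of AXIN2 and its share are uncertain.

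APC, the scaffold that is often truncated in colorectal cancer, had 35.5 and 32.1 CPM in NP samples, against 34.0 and 33.1 CPM in control samples, a log2 fold change of 0.02 (95% interval -0.15 to 0.18). The kinase genes of the complex also stayed close to 0. GSK3B had a log2 fold change of -0.02 (95% interval -0.10 to 0.06) at 21.0 FPKM. CSNK1A1 had one of 0.03 (-0.04 to 0.10) at 27.8 FPKM. Its level is uncertain, since 37.4% of its exon bases are shared with another annotated transcript. TNIK, a kinase that acts on T-cell factor complexes, had a log2 fold change of 0.02 (95% interval -0.06 to 0.10) at 14.9 FPKM.

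The 3 Dishevelled genes encode the relay between receptors and the destruction complex. DVL3 had 152 and 147 CPM in NP samples, against 162 and 163 CPM in control samples, a log2 fold change of -0.12 (SE 0.041, unadjusted p = 0.00548, adjusted p = 0.095 from edgeR). DVL1 had 125 and 127 CPM in NP samples, against 131 and 138 CPM in control samples, a log2 fold change of -0.09 (SE 0.044, unadjusted p = 0.0388, adjusted p = 0.293 from edgeR). In both genes the groups did not overlap, and neither passed after adjustment. DVL2 had a log2 fold change of -0.01 (95% interval -0.12 to 0.10) with overlapping samples. DVL1 was the highest of the family at 33.5 FPKM, followed by DVL3 at 24.7 FPKM and DVL2 at 15.3 FPKM.

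**Figure D3:**
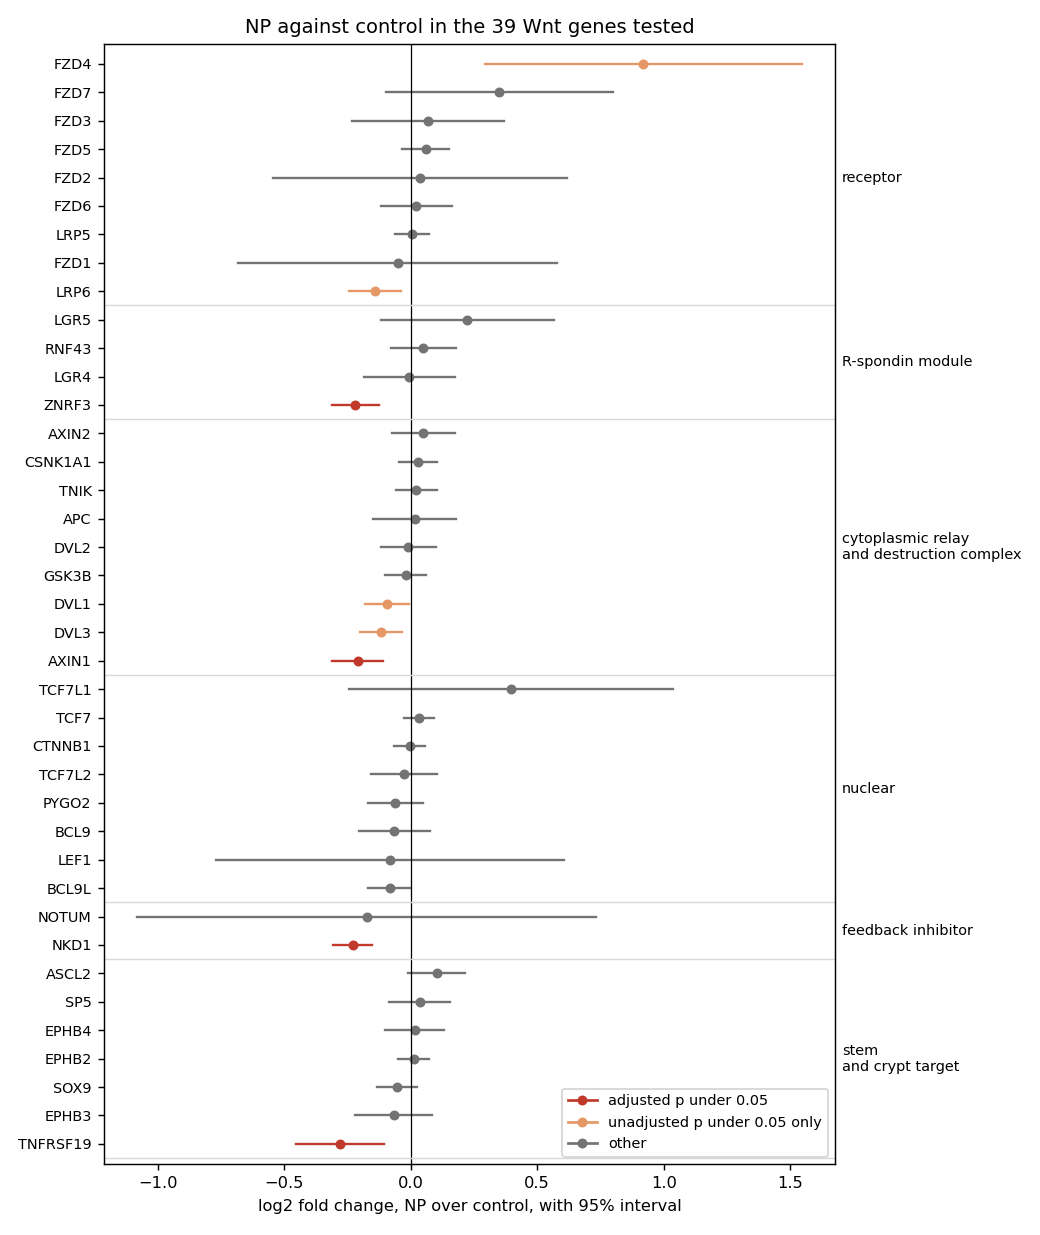
Log2 fold change of NP over control with its 95% interval (horizontal axis) for the 39 Wnt genes tested by edgeR, grouped by role. The 4 genes in red (adjusted p under 0.05) lie left of 0, and the widest interval is that of NOTUM, at -1.08 to 0.73.

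In the nucleus, 0 of 8 genes passed in either direction by edgeR, and 0 had an unadjusted p under 0.05. DESeq2 called none of the 6 to which it gave an adjusted p, which left out TCF7L1 and LEF1. CTNNB1 had 458 and 445 CPM in NP samples, against 457 and 448 CPM in control samples, a log2 fold change of -0.0035 (95% interval -0.07 to 0.06). The amount of β-catenin protein, which is set mainly by its degradation, was not measured here. TCF7 made up 85.6% of the summed TCF/LEF FPKM in both NP samples, against 85.1% and 85.5% in control samples, and its log2 fold change was 0.03 (95% interval -0.03 to 0.09). TCF7L2, the T-cell factor best known in the intestinal epithelium, had 55.8 and 54.6 CPM in NP samples, against 56.4 and 56.2 CPM in control samples, a log2 fold change of -0.03 (95% interval -0.16 to 0.10). TCF7L1 at 0.482 FPKM (log2 fold change 0.40, SE 0.32) and LEF1 at 0.351 FPKM (-0.08, SE 0.34) had few counts. The coactivator genes BCL9 (log2 fold change -0.07, SE 0.07), BCL9L (-0.08, SE 0.043) and PYGO2 (-0.06, SE 0.054) had both NP samples below both control samples without passing the test. Of the exon bases of BCL9L, 38.8% overlap other genes, mainly CXCR5 on the opposite strand, which had 0 counts in all samples. How reads in these bases were counted is likewise not known.

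Among the 5 feedback inhibitors, NKD1 fell, NOTUM did not pass, and APCDD1, DKK1 and WIF1 had too few counts to be tested. NKD1 (ENSG00000140807, chr16:50548396-50649249, plus strand), a target of the pathway whose product binds Dishevelled, had the smallest p-value of the 39 genes. It had 208 and 208 CPM in NP samples, against 254 and 234 CPM in control samples. In counts this was 3516 and 2786, against 3992 and 3648. The means were 208 ± 0.298 CPM in NP cells and 244 ± 14.6 CPM in control cells (SD, n = 2 each). The 2 control samples differed more than the 2 NP samples, but an SD of 2 samples is itself imprecise. NKD1 fell by 14.7% (log2 fold change -0.23, SE 0.038, 95% interval -0.31 to -0.15, adjusted p = 2.29e-05 from edgeR). It passed in 12 of 14 alternative settings, and its log2 fold change was -0.17 without control replicate 1 (adjusted p = 0.0395 from edgeR) and -0.29 without control replicate 2. With limma on FPKM values it did not pass (adjusted p = 0.142 and 0.131).

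NOTUM, a secreted enzyme that inactivates Wnt ligands, had 17 and 13 counts in NP samples, against 13 and 22 in control samples. The means were 0.988 ± 0.0234 CPM in NP cells and 1.12 ± 0.411 CPM in control cells (SD, n = 2 each), with overlapping groups and a log2 fold change of -0.17 (SE 0.45, adjusted p = 0.911 from edgeR). APCDD1, a membrane inhibitor of Wnt signalling, had 4 and 7 counts in NP samples, against 7 and 0 in control samples, a ratio of 1.62 with an exact 95% interval of 0.575 to 4.94. DKK1, which binds the LRP co-receptors, had 2 and 0 counts in NP samples, against 1 and 0 in control samples. WIF1, which binds Wnt ligands, had 0 counts in all 4 samples, which allows a level of up to 0.099 CPM in NP cells and 0.0958 CPM in control cells (3 counts over the group). These intervals and limits cover counting error only. A change in these 3 genes was not detectable at this depth.

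Of the 7 stem and crypt targets, 1 was lower and 6 did not pass. TNFRSF19 (ENSG00000127863, chr13:23570370-23676104, plus strand) had 26.8 and 26.7 CPM in NP samples, against 32.5 and 32.5 CPM in control samples. In counts this was 454 and 358, against 511 and 508. The groups did not overlap, and TNFRSF19 fell by 17.6% (log2 fold change -0.28, SE 0.086, adjusted p = 0.0478 from edgeR), the largest fall of the 4 genes and the one nearest the threshold. The call was lost when any 1 of the 4 samples was left out (adjusted p between 0.149 and 0.23 from edgeR), without the filter on low counts (adjusted p = 0.0577) and with limma on FPKM values (adjusted p = 0.143 and 0.129), while the log2 fold change stayed between -0.29 and -0.24 over the 13 alternatives that gave a value. DESeq2 gave no adjusted p for TNFRSF19.

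ASCL2 had 84.7 and 84.4 CPM in NP samples, against 73.6 and 83.9 CPM in control samples. Both NP samples were above both control samples, but by a margin set by control replicate 1: the log2 fold change of 0.10 (95% interval -0.01 to 0.21, adjusted p = 0.397 from edgeR) was 0.01 without that sample and 0.20 without control replicate 2. SP5 had 67.6 and 68.0 CPM in NP samples, against 63.7 and 68.6 CPM in control samples, a log2 fold change of 0.04 (95% interval -0.08 to 0.15, adjusted p = 0.855 from edgeR). Neither gene passed the test. SOX9 had 181 and 178 CPM in NP samples, against 191 and 182 CPM in control samples, a log2 fold change of -0.06 (95% interval -0.14 to 0.02, adjusted p = 0.551 from edgeR). EPHB2, one of the ephrin receptors that position cells along the crypt, had 424 and 427 CPM in NP samples, against 426 and 418 CPM in control samples. Its log2 fold change was 0.01 (95% interval -0.05 to 0.07, adjusted p = 0.915 from edgeR). The other ephrin receptor genes, EPHB3 (log2 fold change -0.07, SE 0.076) and EPHB4 (0.02, SE 0.058), had overlapping groups.

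**Figure D4:**
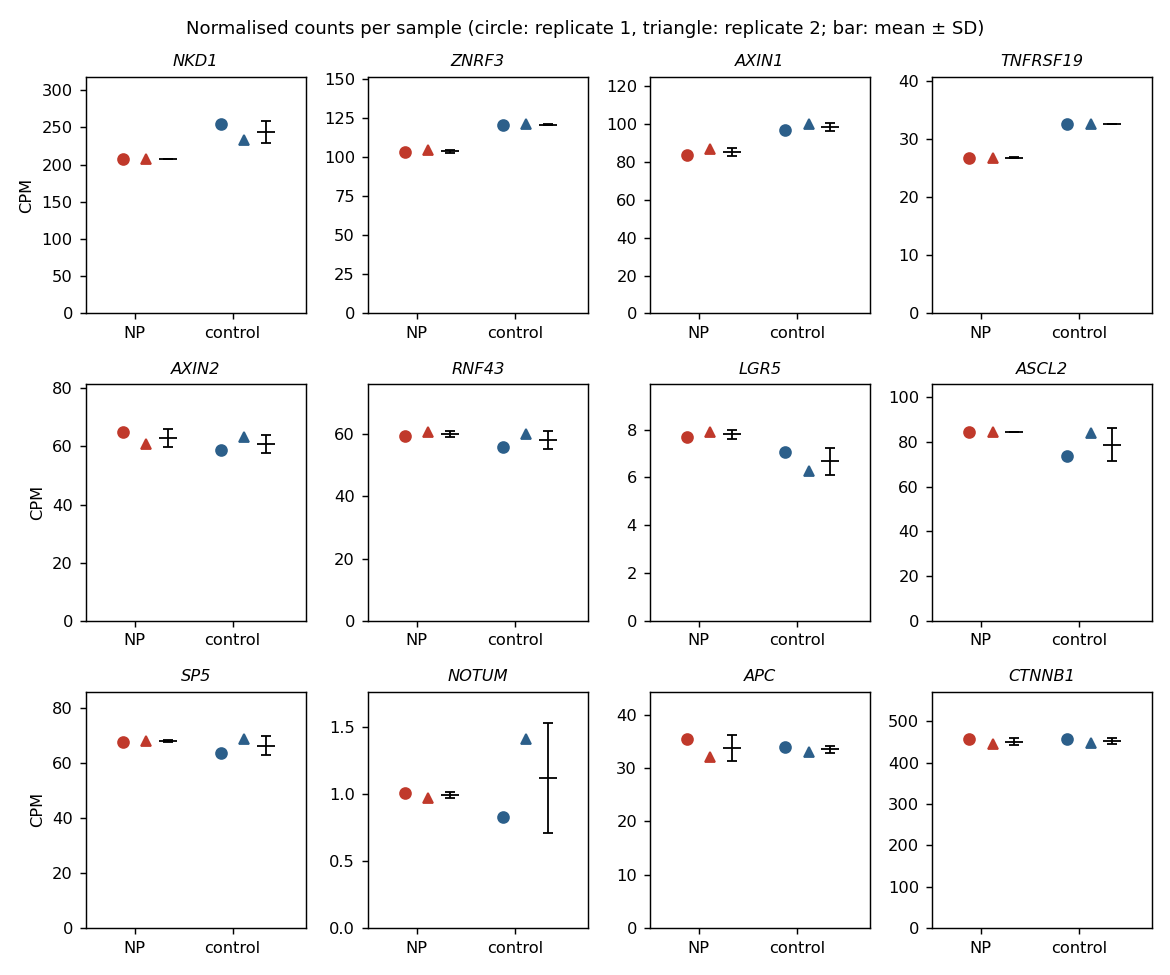
CPM (vertical axis, starting at 0) of 12 Wnt genes in each NP sample (red) and control sample (blue), with the mean ± SD of each group beside the points. NKD1, ZNRF3, AXIN1 and TNFRSF19 have both NP samples below both control samples, while AXIN2, RNF43, SP5, NOTUM, APC and CTNNB1 overlap.

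A wider list of 92 other Wnt pathway genes (ligands, receptors, inhibitors, cytoplasmic and nuclear components, and targets) held 56 genes with enough counts to be tested. Of these, 3 were higher, 5 were lower and 48 did not pass, with a median log2 fold change of -0.03. Over all genes tested, 2.35% were higher and 1.70% were lower. CTNNBIP1, which encodes an inhibitor of the binding of β-catenin to T-cell factors, was higher, with 61.6 and 59.5 CPM in NP samples, against 45.3 and 51.0 CPM in control samples (log2 fold change 0.33, SE 0.068, adjusted p = 0.000755 from edgeR). TLE5, a short relative of the Groucho corepressors (log2 fold change 0.23, adjusted p = 0.0143), and ID2, a transcriptional inhibitor and target gene (0.32, adjusted p = 0.0134), were also higher. BMP4, a signalling ligand, was lower, with 224 and 218 CPM in NP samples, against 243 and 255 CPM in control samples (log2 fold change -0.17, SE 0.037, adjusted p = 0.00156 from edgeR). EP300, an acetyltransferase that acts as a coactivator (log2 fold change -0.17, adjusted p = 0.00682), PROX1, a transcription factor (-0.17, adjusted p = 0.0149), SMOC2, a matrix protein of crypt stem cells (-0.22, adjusted p = 0.0416), and KREMEN1, a DKK co-receptor (-0.12, adjusted p = 0.044), were lower. Of these 8 genes, 0 passed in all 4 fits that left out 1 sample each, and DESeq2 called 2 of them, CTNNBIP1 and BMP4. KREMEN1 lost the call whichever sample was left out, and with offsets for gene length (adjusted p = 0.0924 from edgeR).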

How the data were processed

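RNA of 4 COLO205 samples (2 NP, 2 control) was sequenced. The authors deposited 1 table of raw counts per gene and FPKM values. HISAT2, HTSeq and GRCh38 are listed in the submitters' processing notes, with versions, annotation release and strand setting not given in the sources used here. By a check of the deposited values, FPKM are the counts over gene length and over the sample's total. Columns of per-sample values left unused numbered 0.

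The 42 genes and the other gene lists were chosen with earlier results of these data known. Genes kept by filterByExpr (minimum count 10) were scaled by TMM and tested with the quasi-likelihood test of edgeR 4.0.16 in R 4.3.3, with Benjamini-Hochberg adjustment over all 12616 genes. CPM are counts over TMM-scaled library sizes. Same-numbered samples were not paired, since no source links them. The deviations of same-numbered samples had a correlation of -0.0031 over genes. Samples of a group differed beyond counting noise (chi-square per gene 1.88 for NP, 1.94 for control). This extra spread was small, with a coefficient of variation of 2.65% by the common dispersion of edgeR. Whether it reflects separate cultures or technical repeats was not tested.

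Genes named in full are those past an adjusted or unadjusted p of 0.05, with APC, CTNNB1, AXIN2, LGR5, ASCL2, NKD1, RNF43, ZNRF3, TCF7L2, SOX9, EPHB2, NOTUM and SP5. The other Wnt genes are named where they passed an adjusted p of 0.05. Alternatives tried were the exact test of edgeR, DESeq2 1.42.0, scaling by library size only or by RLE factors, other filters, each sample left out, the replicate block, offsets for gene length, and limma 3.58.1 on log2(FPKM + 1) and log2(FPKM + 0.1). The fit was tested on simulated counts whose changes were all larger than those of the 4 Wnt genes called. That test therefore does not bear on calls of their size. Promoters came from RefSeq. A planned comparison of protein sequences was not run.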

Additional observations from a re-analysis of the deposited data

How the results depend on the processing

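The number of Wnt genes called lower was 2 with DESeq2, 0 and 0 with limma on log2(FPKM + 1) and log2(FPKM + 0.1), and between 2 and 3 with each sample left out in turn (2 without control replicate 2 or NP replicate 1). At an adjusted p under 0.10, 1 gene (FZD4) was higher and 5 were lower. With the replicate block, which rests only on shared numbers, 4 Wnt genes were lower and 0 higher, and 652 genes were called over the table. Without each sample in turn, the median log2 fold change of the Wnt genes lay between -0.025 and 0.0067, and between 0 and 1 of them reached the study's cutoff (FZD4 without NP replicate 2, at 1.05). Over all genes, 512 were called by edgeR, 181 by DESeq2, 61 and 71 by limma, and between 171 (without control replicate 1) and 387 (without control replicate 2) with each sample left out. The causes were not tested. The alternatives gave 533 values of single Wnt genes. Of these, 503 kept a call and its direction, or stayed uncalled and moved by less than the gene's SE. Values that stayed uncalled could change direction, as that of FZD1 did without control replicate 2 (-0.05 to 0.14). Another 16 lost the threshold, 14 stayed uncalled and moved by more, and 0 changed the sign of a call. With 2 samples per group, changes of genes with few counts, such as FZD4 and LGR5, were measured with wide intervals.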

Other observations

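The gene next to ZNRF3 among those tested, KREMEN1, lies 15590 bases downstream on the same chromosome and was also lower (log2 fold change -0.12, adjusted p = 0.044 from edgeR). On the other side XBP1, at 82975 bases, did not pass (log2 fold change 0.03, adjusted p = 0.713 from edgeR). Of the 2 nearest tested genes on each side of NKD1, ZNRF3, AXIN1 and TNFRSF19, none other than KREMEN1 passed the test. The nearest to NKD1 was NOD2, at 44339 bases, with a log2 fold change of -0.39 (SE 0.18, adjusted p = 0.277 from edgeR).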
